A study of Mus musculus with 16 samples.

Results

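Metallothioneins and the zinc transporters that work beside them were followed in mouse bone marrow-derived macrophages given dexamethasone, with and without FOXO3. The 7 genes were Mt1, Mt2, Mtf1, Slc30a1, Slc30a5, Slc39a1 and Slc39a14. They were found by their symbols among the 54532 Ensembl gene identifiers of the files, and all 7 were measured and passed the filter on low values that left 11654 genes for testing. Dexamethasone is a synthetic glucocorticoid that activates the glucocorticoid receptor, and FOXO3 is a forkhead transcription factor. Per the series title, the question was how FOXO3 bears on signalling by that receptor. All cells came from marrow of FVB/N mice, were matured in medium containing L929-conditioned supernatant, and were treated for 24 h. The 16 libraries formed 4 groups of 4: FOXO3-/- cells with 100 nM dexamethasone (KO dex), FOXO3-/- cells with DMSO (KO vehicle), wildtype cells with 100 nM dexamethasone (WT dex) and wildtype cells with DMSO (WT vehicle). The labels do not state the allele behind FOXO3-/- or the age and sex of the mice. Replicates carry numbers but no animal or culture name, and a p-value here therefore reflects only how far libraries of 1 group vary, possibly for technical reasons.

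Metallothioneins are small cysteine-rich proteins that bind zinc and copper and act as a reserve and buffer for both metals. MTF1 is the transcription factor that senses free zinc and, when zinc is bound, switches on genes that carry metal response elements, metallothionein genes among them. Proteins of the SLC30 family (ZnT) move zinc out of the cytosol, either across the plasma membrane or into organelles, and proteins of the SLC39 family (ZIP) move it into the cytosol. Metallothionein genes are also classical glucocorticoid-induced genes in liver and in many cell lines. In macrophages zinc handling is known as part of host defence, since microbes inside the cell depend on the metal.

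Mt1 (ENSMUSG00000031765) and Mt2 (ENSMUSG00000031762) are neighbours on the forward strand of chromosome 8, with 5514 bases between the end of Mt2 and the start of Mt1 in the GENCODE M21 annotation of GRCm38. That annotation, used for all gene positions here, places Mt2 at chr8:94172664-94173568 and Mt1 at chr8:94179082-94180327. Slc30a1 (ENSMUSG00000037434) lies at chr1:191906767-191913247, also on the forward strand. The promoter windows of these 3 genes are shown because they held at least 2 copies of the metal response element core. Each runs from 250 bases before to 50 bases after the annotated start, on GRCm38.p6, as given by RefSeq for C57BL/6J, a strain other than that of the cells. Capitals mark every TGCACNC or TGCGCNC, read on both strands. The windows are chr8:94178839-94179138 for Mt1, chr8:94172368-94172667 for Mt2 and chr1:191906531-191906830 for Slc30a1, all on the forward strand.
Mt1: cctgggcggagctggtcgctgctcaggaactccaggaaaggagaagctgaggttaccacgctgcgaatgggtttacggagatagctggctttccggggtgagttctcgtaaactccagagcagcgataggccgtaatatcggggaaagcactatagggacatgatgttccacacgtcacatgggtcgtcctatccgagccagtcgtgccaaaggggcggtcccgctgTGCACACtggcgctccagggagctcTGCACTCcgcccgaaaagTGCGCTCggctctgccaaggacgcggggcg
Mt2: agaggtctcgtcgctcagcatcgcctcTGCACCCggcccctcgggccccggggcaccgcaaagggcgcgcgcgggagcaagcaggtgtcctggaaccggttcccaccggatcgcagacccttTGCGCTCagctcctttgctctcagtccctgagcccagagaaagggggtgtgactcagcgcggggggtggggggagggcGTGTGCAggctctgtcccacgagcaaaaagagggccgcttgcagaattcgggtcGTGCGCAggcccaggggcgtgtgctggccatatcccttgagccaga
Slc30a1: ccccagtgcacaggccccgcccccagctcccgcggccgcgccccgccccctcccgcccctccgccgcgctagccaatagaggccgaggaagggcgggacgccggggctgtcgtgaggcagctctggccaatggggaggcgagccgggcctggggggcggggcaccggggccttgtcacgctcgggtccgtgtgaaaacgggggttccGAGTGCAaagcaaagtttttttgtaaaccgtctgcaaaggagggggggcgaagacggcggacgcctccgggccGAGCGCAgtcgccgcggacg

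The Mt1 window held 3 such cores and the Mt2 window 4, whereas 25.7% of all 32851 promoter windows held at least 1 and 1.97% held 3 or more. The Slc30a1 window held 2 cores and the Slc30a5 window 1. The windows of Mtf1 and Slc39a1 held 0, and Slc39a14 was not matched to a window, so 6 of the 7 genes were searched. A full palindromic glucocorticoid element, AGAACA and TGTTCT with 3 bases between them, was in 3 of the 32851 windows and in none of these 6. For so rare a match the absence says little about these genes, and bases outside the windows were not searched. The forkhead element TGTTTAC was in 3.65% of all windows, again in none of the 6. A match describes letters in a window and is not a measured binding site.

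**Figure D1:**
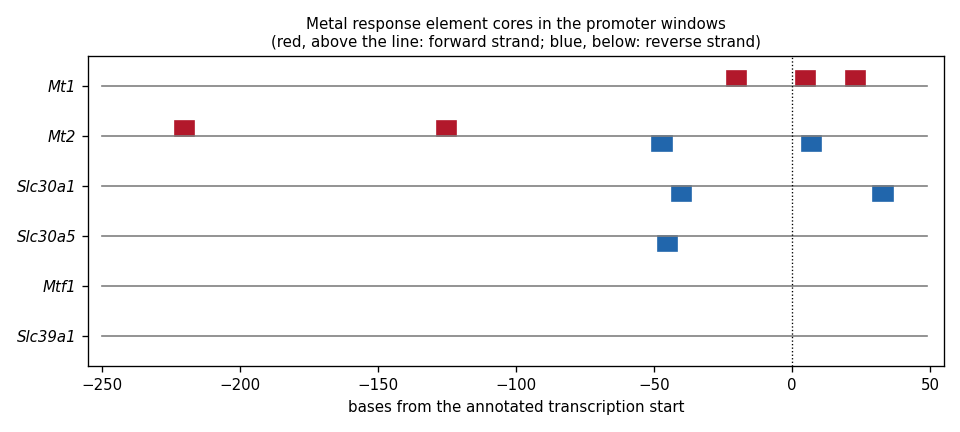
Position of each metal response element core, in bases from the annotated start, in the windows of the 6 genes that were matched, with forward-strand matches above each line and reverse-strand matches below. Mt1 has 3 forward matches, all between 23 bases before and 26 bases after the start, Mt2 has 4 on both strands, and the lines of Mtf1 and Slc39a1 are empty.

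Levels are in FPKM, which scales the fragments on a gene by exon length and by depth, so levels of different genes can be set side by side per length. Reads recovered from them on genes came to between 16886745 and 20584573 per library. All 10 macrophage markers examined were present, summing to 10633 to 17248 FPKM per library, while the B cell and T and NK cell lists stayed at or below 0.356 FPKM in sum. The 4 osteoclast markers summed to 22.6 to 26.2 FPKM in KO dex and 15.8 to 20.3 in KO vehicle. In WT dex they summed to 35.0 to 48.1 FPKM and in WT vehicle to 34.5 to 49.7 FPKM. Of these markers, Calcr reached at most 0.0288 FPKM and Ocstamp at most 0.0443 FPKM in any library. The 4 endothelial markers summed to 2.40 to 3.95 FPKM in KO dex, 7.72 to 11.9 in KO vehicle, 4.79 to 16.1 in WT dex and 10.2 to 14.3 in WT vehicle. Fkbp5, a glucocorticoid receptor target used as a check of treatment, averaged 104.5 ± 7.46 FPKM in KO dex and 1.03 ± 0.0857 FPKM in KO vehicle, and 81.6 ± 7.28 FPKM in WT dex and 1.19 ± 0.185 FPKM in WT vehicle (SD, n = 4 each). Foxo3 itself averaged 23.8 ± 0.635 FPKM in KO vehicle and 24.7 ± 1.72 FPKM in WT vehicle (exact permutation test, two-sided, p = 0.371, where the smallest p the 70 splits allow is 0.0286), so the value over the whole gene does not check the genotype labels. The labels do not say which part of the gene was deleted.

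Genes of fibroblasts and other stromal cells varied between libraries. Col1a1, a fibrillar collagen gene of stromal cells, was measured at 1.18, 1.20, 15.0 and 25.5 FPKM in KO dex and at 4.76, 0.506, 0.395 and 95.8 FPKM in KO vehicle. In WT dex it was 355.5, 159, 286 and 19.1 FPKM, and in WT vehicle 127, 124, 6.77 and 174 FPKM. Most wildtype libraries were thus far above most FOXO3-/- libraries. KO vehicle replicate 4, WT dex replicate 4 and WT vehicle replicate 3 stood apart from the rest of their groups. The 10 stromal markers summed to 7.10 to 95.1 FPKM in KO dex, 2.41 to 338.5 in KO vehicle, 62.9 to 1001 in WT dex and 26.0 to 482.8 in WT vehicle, and none was at 0 in all libraries of a group. Where leaving out these 3 libraries changes a call of 1 of the 7 genes, the value without them is given. In bulk RNA, a change in the share of a cell type and a change in RNA per cell cannot be told apart.

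Dexamethasone raised both metallothionein genes and lowered several zinc transporter genes, in both genotypes. In FOXO3-/- cells 2 of the 7 genes were called higher (15.0% of all tested genes were) and 3 were called lower (24.1% were), by limma with Benjamini-Hochberg adjustment over all tested genes at 0.05. Their median log2 difference was -0.30, against -0.05 over all tested genes. In wildtype cells 2 of the 7 were called higher (background 11.9%) and 3 lower (background 18.2%), with a median of -0.17 against -0.02 over all tested genes. With 7 genes these counts do not set the list apart from the background, and the results are those of the single genes. Log2 differences are on the log2(FPKM + 1) scale, which understates changes of genes with low values such as Mt2.

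**Figure D2:**
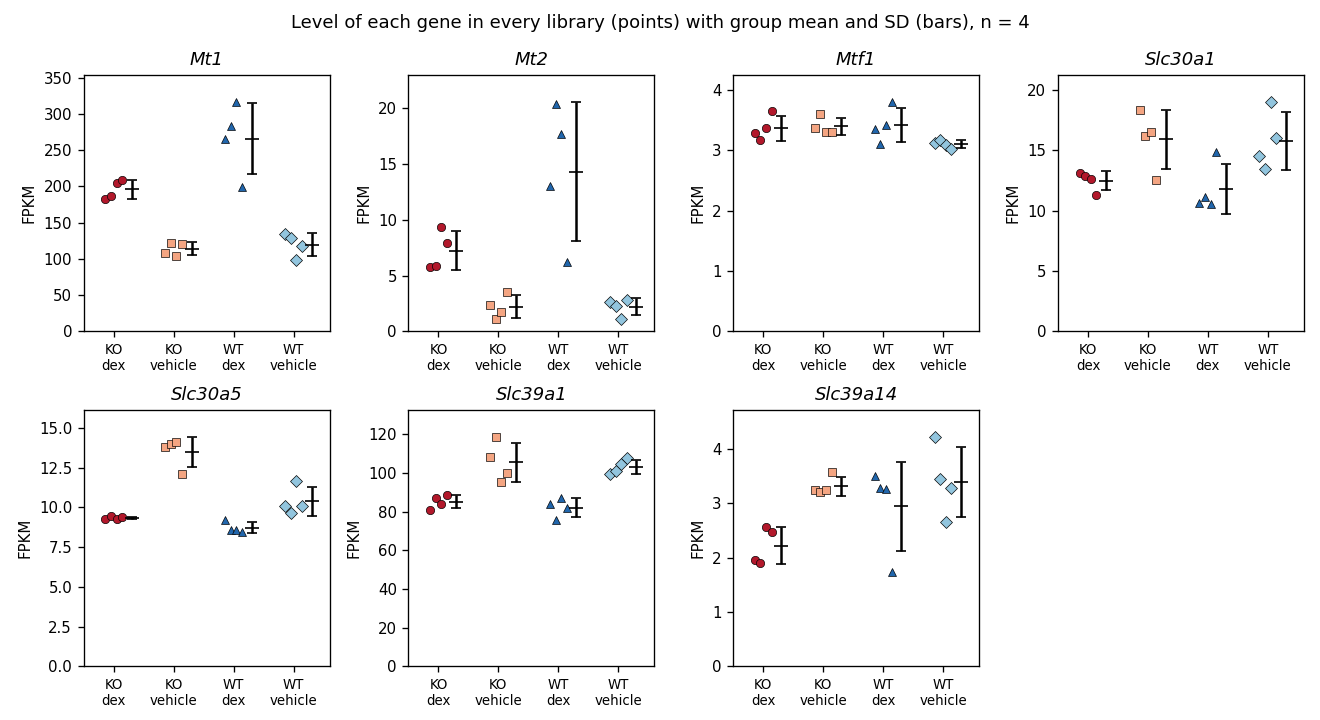
FPKM of each of the 7 genes in every library (points), with the mean and SD of the 4 libraries of each group (bars), from a baseline of 0. In both genotypes the dexamethasone points of Mt1 and Mt2 lie above all vehicle points, and those of Slc39a1 lie below them.

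Mt1 had the higher RNA level of the pair per length. It was measured at 182, 186, 205 and 209 FPKM in KO dex and at 108, 121, 104 and 121 FPKM in KO vehicle. In WT dex it was 265, 284, 316 and 199 FPKM, and in WT vehicle 134, 128, 99.0 and 118 FPKM. No dexamethasone library overlapped a vehicle library of its genotype, and WT dex replicate 4 was the lowest of its group. Mt1 rose 1.72-fold in FOXO3-/- cells, a log2 difference of 0.78 ± 0.126 (SE; limma, Benjamini-Hochberg adjusted p = 0.000232). In wildtype cells it rose 2.22-fold, a log2 difference of 1.13 ± 0.126 (limma, adjusted p = 1.31e-05). The group means were 196 ± 13.4 FPKM in KO dex and 114 ± 8.87 FPKM in KO vehicle, and 266 ± 49.2 FPKM in WT dex and 119.8 ± 15.4 FPKM in WT vehicle (SD, n = 4 each). WT dex was highest, then KO dex, and the means ± SD of both vehicle groups overlapped.

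Mt2 had the lower level of the pair and the larger fold changes. It was measured at 5.73, 5.86, 9.38 and 7.88 FPKM in KO dex and at 2.37, 1.13, 1.76 and 3.52 FPKM in KO vehicle. The values in WT dex were 13.0, 20.4, 17.6 and 6.18 FPKM, and in WT vehicle 2.59, 2.30, 1.08 and 2.79 FPKM. Again no dexamethasone library overlapped a vehicle library of its genotype, and WT dex replicate 4 fell among the KO dex libraries. Mt2 rose 3.28-fold in FOXO3-/- cells, a log2 difference of 1.39 ± 0.315 (limma, adjusted p = 0.00295). It rose 6.53-fold in wildtype cells, a log2 difference of 2.19 ± 0.315 (limma, adjusted p = 0.000126). The vehicle values rest on few reads: recovered reads on Mt2 ran from 11 in KO vehicle replicate 2 to 234 in WT dex replicate 2, whereas Mt1 had 2131 to 7327. Means of both vehicle groups, 2.196 ± 1.02 FPKM in KO vehicle and 2.19 ± 0.765 FPKM in WT vehicle, could not be told apart by their spread. The rises of Mt1 and Mt2 in both genotypes passed the threshold in each of the 27 alternative analyses.

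The pair thus changed in unequal measure. Per length, Mt1 exceeded Mt2 by 21.9 to 31.8 times in KO dex, with a median of 29.2, and by 34.4 to 107.5 times in KO vehicle, with a median of 52.4. In wildtype cells the ratio was 13.9 to 32.3 under dexamethasone, with a median of 19.1, and 42.2 to 91.4 with vehicle, with a median of 53.8. The dexamethasone and vehicle ratios did not overlap within either genotype. The exon lengths were 1246 bases for Mt1, its whole annotated span, and 588 bases for Mt2, so the size of the ratio depends on the annotation. Of the other metallothionein genes, Mt3 was listed at 0 in all KO vehicle libraries and reached at most 1.06 FPKM in any library, and neither Mt3 nor Mt4 passed the filter on low values. Mt2 overlaps the antisense gene Gm45774 on chromosome 8, which was at no more than 0.230 FPKM. Without a stated strand setting, the Mt2 level and its ratios to Mt1 are uncertain.

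Mtf1 (ENSMUSG00000028890, chr4:124802104-124849800, forward strand), the gene of the zinc sensor, lay between 3.02 and 3.80 FPKM in all 16 libraries. It was measured at 3.29, 3.17, 3.37 and 3.65 FPKM in KO dex and at 3.37, 3.61, 3.31 and 3.31 FPKM in KO vehicle. In WT dex it was 3.36, 3.10, 3.43 and 3.80 FPKM, and in WT vehicle 3.13, 3.17, 3.09 and 3.02 FPKM. The dexamethasone and vehicle libraries overlapped in both genotypes. The log2 difference was -0.01 ± 0.0578 in FOXO3-/- cells (limma, adjusted p = 0.913) and 0.11 ± 0.0578 in wildtype cells (limma, adjusted p = 0.192). On recovered reads with limma voom both values were higher and passed, at 0.16 (adjusted p = 0.0485) in FOXO3-/- cells and 0.23 (adjusted p = 0.0121) in wildtype cells, where the median of all genes also stood higher, at 0.12 and 0.07. Mtf1 shares bases with 1110065P20Rik on the opposite strand, measured at 2.37 to 5.18 FPKM, and without a stated strand setting its value is uncertain.

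Slc30a1 encodes ZnT1, the zinc exporter of the plasma membrane and itself a classical MTF1 target. It was measured at 13.1, 12.8, 12.6 and 11.3 FPKM in KO dex and at 18.4, 16.1, 16.5 and 12.6 FPKM in KO vehicle. The values in WT dex were 10.7, 11.1, 10.6 and 14.9 FPKM, and in WT vehicle 14.5, 13.5, 19.0 and 16.04 FPKM. Most dexamethasone libraries lay below the vehicle libraries, but the groups overlapped in both genotypes through KO vehicle replicate 4 and WT dex replicate 4. Slc30a1 fell in wildtype cells, with a log2 difference of -0.39 ± 0.126 (limma, adjusted p = 0.0303). In FOXO3-/- cells the difference was -0.32 ± 0.126 and missed the threshold (limma, adjusted p = 0.0603). Without the 3 libraries apart in Col1a1 it was -0.42 there (limma, adjusted p = 0.000369). The wildtype call passed in 18 of 27 alternatives and was lost when any of WT dex replicates 1, 2 and 3 or WT vehicle replicates 3 and 4 was left out, with adjusted p between 0.0638 and 0.0931.

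Slc30a5 (ENSMUSG00000021629, chr13:100802648-100833427, reverse strand) encodes ZnT5, which loads zinc into the early secretory pathway together with ZnT6. It was measured at 9.26, 9.43, 9.27 and 9.36 FPKM in KO dex and at 13.8, 13.97, 14.1 and 12.1 FPKM in KO vehicle. In WT dex it was 9.22, 8.57, 8.59 and 8.46 FPKM, and in WT vehicle 10.1, 9.65, 11.7 and 10.1 FPKM. The groups were separate within each genotype, and the KO dex libraries lay within a narrow band. Slc30a5 fell, with a log2 difference of -0.49 ± 0.0614 in FOXO3-/- cells (limma, adjusted p = 2.6e-05), a call that passed in all 27 alternatives. In wildtype cells it fell too, with a difference of -0.23 ± 0.0614 (limma, adjusted p = 0.0124). The wildtype call was lost with only the compared groups in the fit (adjusted p = 0.0603) and on recovered reads (adjusted p = 0.0587). Its partner Slc30a6 was at 5.10 ± 0.5995 FPKM in KO dex and 5.55 ± 0.396 FPKM in KO vehicle, and at 4.84 ± 0.325 FPKM in WT dex and 5.11 ± 0.133 FPKM in WT vehicle, and passed no test.

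Slc39a1 (ENSMUSG00000052310, chr3:90248172-90253612, forward strand), which encodes the widely expressed plasma membrane importer ZIP1, was by far the most abundant of the zinc transporter genes tested. It was measured at 80.8, 86.9, 84.1 and 88.5 FPKM in KO dex and at 108, 118, 95.3 and 100.0 FPKM in KO vehicle. The values in WT dex were 83.7, 75.6, 87.0 and 81.7 FPKM, and in WT vehicle 99.3, 100.8, 104 and 108 FPKM. The dexamethasone and vehicle groups did not overlap in either genotype. Slc39a1 fell, with a log2 difference of -0.30 ± 0.0683 in FOXO3-/- cells (limma, adjusted p = 0.00286) and of -0.33 ± 0.0683 in wildtype cells (limma, adjusted p = 0.00228). Under quantile normalization the FOXO3-/- value was -0.10 (adjusted p = 0.193), and on recovered reads -0.14 (adjusted p = 0.0818). In the libraries under 50 FPKM of Col1a1 the wildtype value was -0.35 (adjusted p = 0.134), from 1 wildtype library per treatment. Of the 50-base words in its exons, 21.8% also occur in a processed pseudogene, Slc39a1-ps, which was at no more than 0.374 FPKM, so reads could have been split between them.

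Slc39a14 (ENSMUSG00000022094, chr14:70303469-70351425, reverse strand) encodes ZIP14, an importer of zinc, iron and manganese that is known as an acute-phase gene in liver. It was measured at 1.95, 1.90, 2.56 and 2.47 FPKM in KO dex and at 3.25, 3.20, 3.24 and 3.57 FPKM in KO vehicle. In WT dex it was 3.49, 3.29, 3.26 and 1.73 FPKM, and in WT vehicle 4.22, 3.45, 2.66 and 3.27 FPKM. The FOXO3-/- groups did not overlap, while the wildtype groups did. It fell, with a log2 difference of -0.43 ± 0.145 in FOXO3-/- cells (limma, adjusted p = 0.0299), a call that passed in 18 of 27 alternatives. The call was lost when KO dex replicate 1 or 2 or KO vehicle replicate 1, 2 or 4 was left out (adjusted p between 0.0529 and 0.0827). It was also lost with median-ratio scaling (-0.38; limma, adjusted p = 0.066) and with no filter (limma, adjusted p = 0.0703). On recovered reads the value was -0.42 (limma voom, adjusted p = 0.156). In wildtype cells the difference was -0.17 ± 0.145 (limma, adjusted p = 0.402).

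**Figure D3:**
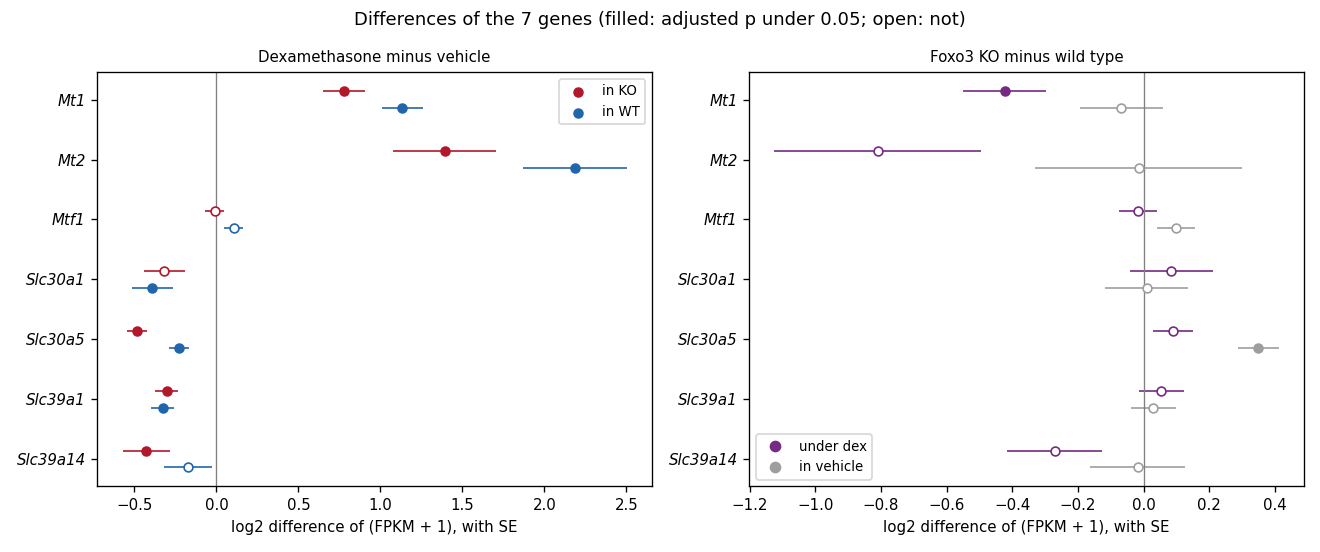
Log2 difference of FPKM + 1 with its SE for each of the 7 genes, dexamethasone minus vehicle on the left and FOXO3-/- minus wildtype on the right; filled points have an adjusted p under 0.05 and open points do not. Mt1 and Mt2 stand to the right of 0 in the left panel, from 0.78 to 2.19, and in the right panel only Mt1 under dexamethasone and Slc30a5 in vehicle are filled.

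In vehicle-treated cells, 1 of the 7 genes differed between genotypes beyond the threshold, the secretory pathway exporter gene Slc30a5. It was higher in FOXO3-/- cells, at 13.5 ± 0.938 FPKM in KO vehicle and 10.4 ± 0.898 FPKM in WT vehicle (SD, n = 4 each), a log2 difference of 0.35 ± 0.0614 (limma, adjusted p = 0.00413), and the groups did not overlap. It was the 1 gene of the 7 called higher, where 3.37% of all tested genes were, and 0 were called lower. The call passed in 25 of 27 alternatives and was lost with only the compared groups in the fit (adjusted p = 0.0632) and in the libraries under 50 FPKM of Col1a1 (adjusted p = 0.251). For the other 6 genes the log2 differences lay between -0.07 (Mt1) and 0.10 (Mtf1), with adjusted p of 0.318 or more, although no KO vehicle library of Mtf1 overlapped a WT vehicle library. Some of these values depended on the fit. The Slc30a1 difference was 0.22 with library weights (limma, adjusted p = 0.0473) and -0.24 with a stromal marker score as a covariate (limma, adjusted p = 0.180). The Mt2 difference was -0.39 without the 3 libraries apart in Col1a1 (limma, adjusted p = 0.154). With the stromal score it was 0.63 (limma, adjusted p = 0.0912).

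Under dexamethasone, Mt1 was the 1 gene of the 7 called, and it was lower in FOXO3-/- cells (12.4% of all tested genes were called lower). KO dex averaged 196 ± 13.4 FPKM and WT dex 266 ± 49.2 FPKM, a log2 difference of -0.42 ± 0.126 (limma, adjusted p = 0.026). The groups overlapped through WT dex replicate 4, at 199 FPKM. Mt2 averaged 7.21 ± 1.75 FPKM in KO dex and 14.3 ± 6.20 FPKM in WT dex, a log2 difference of -0.81 ± 0.315 that missed the threshold (limma, adjusted p = 0.0694). Slc39a14 differed by -0.27 ± 0.145 (limma, adjusted p = 0.174). Without WT dex replicate 4 the Slc39a14 difference was -0.44 (limma, adjusted p = 0.00673). It was -0.44 as well without all 3 libraries apart in Col1a1 (limma, adjusted p = 0.0018). With a stromal marker score as a covariate, however, it was 0.05 (limma, adjusted p = 0.853), and in the libraries under 50 FPKM of Col1a1 it was 0.23. Slc30a5 differed by 0.09 ± 0.0614 (adjusted p = 0.287), its libraries just failing to overlap at 9.26 FPKM in KO dex and 9.22 FPKM in WT dex. Mtf1, Slc30a1 and Slc39a1 differed by -0.02, 0.08 and 0.05, with adjusted p of 0.588 or more. Without the 3 libraries apart in Col1a1 the Slc30a1 difference was 0.19 (limma, adjusted p = 0.0423), and with the stromal covariate it was -0.23 (adjusted p = 0.150).

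Both metallothionein values in WT dex were lowest in the 1 library with the least Col1a1. That was replicate 4, with 19.1 FPKM of Col1a1, 199 FPKM of Mt1 and 6.18 FPKM of Mt2, inside the ranges of KO dex. WT dex replicates 1, 2 and 3 had 355.5, 159 and 286 FPKM of Col1a1. Among them Mt1, at 265, 284 and 316 FPKM, and Mt2, at 13.0, 20.4 and 17.6 FPKM, did not follow Col1a1. In KO dex both genes were higher in replicates 3 and 4, which had more Col1a1, than in replicates 1 and 2. The vehicle groups were similar in part. In WT vehicle both genes were lowest in replicate 3, which had 6.77 FPKM of Col1a1, 99.0 FPKM of Mt1 and 1.08 FPKM of Mt2. In KO vehicle, replicate 4, with 95.8 FPKM of Col1a1, was highest in Mt2 at 3.52 FPKM. Its Mt1, at 121.1 FPKM, lay within the range of the others, 104 to 121.4 FPKM. With a stromal marker score as a covariate the FOXO3-/- minus wildtype difference under dexamethasone was -0.15 for Mt1 (limma, adjusted p = 0.481) and 0.01 for Mt2. In the libraries under 50 FPKM of Col1a1 it was -0.03 for Mt1 (adjusted p = 0.917) and 0.17 for Mt2, with 1 wildtype library per treatment. Without WT dex replicate 4 the Mt2 difference was -1.14 (limma, adjusted p = 0.00489). Without all 3 libraries apart in Col1a1 it was -1.14 as well (limma, adjusted p = 0.000365), and the Mt1 difference was -0.55 (limma, adjusted p = 0.000134). Cell type markers moved beside these values. Under dexamethasone, FOXO3-/- cells had 6 of 8 tested stromal, 2 of 2 osteoclast and 2 of 4 endothelial markers called lower. The share of all tested genes called lower was 12.4%. The 2 osteoclast markers were Ctsk and Acp5, since Calcr and Ocstamp did not pass the filter on low values. Of 10 macrophage markers, 6 were called higher (14.3% of all tested genes were). The part of these markers in the results was not tested beyond the stromal score. The Mt1 call passed in 17 of 27 alternatives and was lost when any of KO dex replicates 1 and 2 or WT dex replicates 1, 2 and 3 was left out, with adjusted p between 0.0597 and 0.0883. Stromal content and genotype cannot be told apart here, since most wildtype libraries were high and most FOXO3-/- libraries low.

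**Figure D4:**
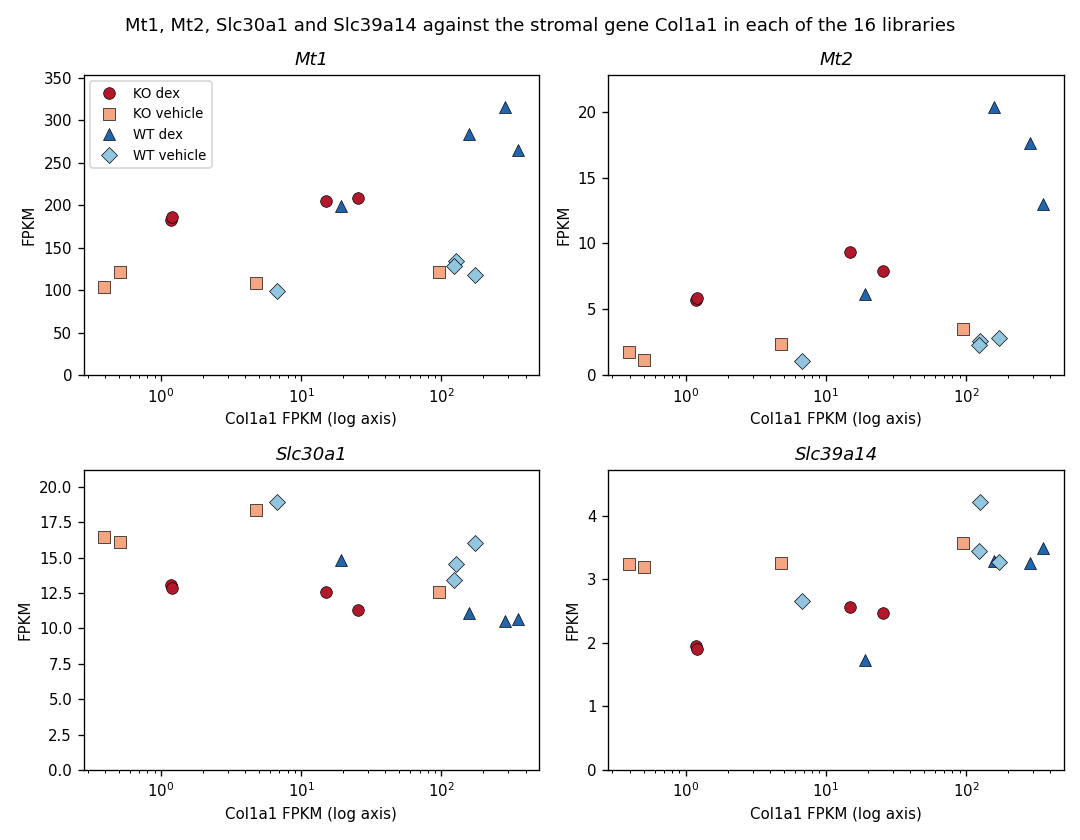
FPKM of Mt1, Mt2, Slc30a1 and Slc39a14 (vertical axes) against FPKM of the stromal gene Col1a1 (horizontal log axis) in each of the 16 libraries. At like Col1a1, WT dex replicate 4 (19.1 FPKM of Col1a1) sits beside the KO dex libraries in Mt1 and Mt2, and in those panels every dexamethasone point lies above every vehicle point of its genotype.

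The difference between the responses of both genotypes was tested as an interaction, and 0 of the 7 genes passed (limma with Benjamini-Hochberg adjustment, where 0.129% of all tested genes did). Only Slc30a5 had an unadjusted p under 0.05 (0.00935), and limma voom on recovered reads also called 0 of the 7. The values, FOXO3-/- response minus wildtype response, were -0.35 ± 0.178 for Mt1 (adjusted p = 0.460), -0.79 ± 0.446 for Mt2 (adjusted p = 0.516) and -0.26 ± 0.0868 for Slc30a5 (adjusted p = 0.262). The Slc30a5 interaction was -0.37 without the 3 libraries apart in Col1a1 (limma, adjusted p = 0.00698) and -0.36 with library weights (adjusted p = 0.00258). Only these 2 of 26 alternatives passed for it. With the stromal covariate it was -0.28 (limma, adjusted p = 0.101), and on recovered reads -0.20 (limma voom, adjusted p = 0.360). In the libraries under 50 FPKM of Col1a1 it was -0.11. For the rest of the 7 genes, with all libraries, the interaction lay between -0.25 for Slc39a14 and 0.07 for Slc30a1. A larger rise of the metallothioneins in wildtype than in FOXO3-/- cells was therefore not shown by the test of the difference.

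Genes of both transporter families were then counted, the members included. Of 10 SLC39 genes that passed the filter, out of 14, dexamethasone lowered 6 and raised 0 in FOXO3-/- cells, with a median log2 difference of -0.37, where 24.1% of all tested genes were called lower. In wildtype cells it lowered 4 and raised 1, with a median of -0.19, where 18.2% of all tested genes were called lower. With median-ratio scaling 4 were called lower in FOXO3-/- cells, and on recovered reads 3. The steepest fall among these genes was that of Slc39a10, whose protein ZIP10 pairs with ZIP6 in zinc import. It averaged 3.44 ± 0.284 FPKM in KO dex and 8.005 ± 0.845 FPKM in KO vehicle, a log2 difference of -1.02 (limma, adjusted p = 2.35e-05). In wildtype cells it averaged 2.71 ± 0.400 FPKM in WT dex and 7.32 ± 1.79 FPKM in WT vehicle, a log2 difference of -1.15 (limma, adjusted p = 1.28e-05).

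Slc39a6, the gene of ZIP6, fell as well. It averaged 12.8 ± 1.38 FPKM in KO dex and 25.1 ± 5.50 FPKM in KO vehicle, a log2 difference of -0.90 (limma, adjusted p = 0.000449). It averaged 11.9 ± 0.425 FPKM in WT dex and 18.4 ± 4.47 FPKM in WT vehicle, a log2 difference of -0.57 (limma, adjusted p = 0.0135). Slc39a11, the gene of the intracellular transporter ZIP11, averaged 16.7 ± 0.658 FPKM in KO dex and 24.6 ± 5.60 FPKM in KO vehicle. It changed by -0.50 in FOXO3-/- cells (limma, adjusted p = 0.00952) and by -0.53 in wildtype cells (limma, adjusted p = 0.00976). The wildtype call was lost only in the libraries under 50 FPKM of Col1a1, with 1 wildtype library per treatment. Slc39a13, the gene of ZIP13 and known for its role in connective tissue, was called lower in FOXO3-/- cells at -0.46 (adjusted p = 0.0206), while its wildtype value was -0.02 (adjusted p = 0.942). The FOXO3-/- call was lost with median-ratio scaling (adjusted p = 0.0516), on recovered reads (adjusted p = 0.155), and when KO dex replicate 1 or KO vehicle replicate 4 was left out. Slc39a9 was called higher in wildtype cells at 0.15 (limma, adjusted p = 0.0459), but that call passed in only 8 of 27 alternatives and was lost on leaving out most single libraries. Its FOXO3-/- value was near 0.

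Of 6 SLC30 genes that passed the filter, out of 10, dexamethasone raised 1 and lowered 1 in FOXO3-/- cells, and raised 0 and lowered 2 in wildtype cells. Over all tested genes the shares were 15.0% higher and 24.1% lower in FOXO3-/- cells, and 11.9% higher and 18.2% lower in wildtype cells. Slc30a7, the gene of the Golgi transporter ZnT7, was the 1 that rose, averaging 5.52 ± 0.252 FPKM in KO dex and 4.37 ± 0.313 FPKM in KO vehicle, a log2 difference of 0.28 (limma, adjusted p = 0.0193), a call that was lost when KO dex replicate 4 or KO vehicle replicate 2 was left out. In wildtype cells its value was 0.10 (adjusted p = 0.422). Between genotypes, 2 of the 18 tested genes of the whole family were called in vehicle, Slc30a5 and Slc39a9, both higher in FOXO3-/- cells. Of all tested genes 3.37% were called higher there and 1.30% lower. The log2 difference of Slc39a9 was 0.20 (limma, adjusted p = 0.0461), a call that passed in 9 of 27 alternatives. Under dexamethasone the 1 called gene of the 18 was Mt1, which was lower, where 14.3% of all tested genes were called higher and 12.4% lower.

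**Figure D5:**
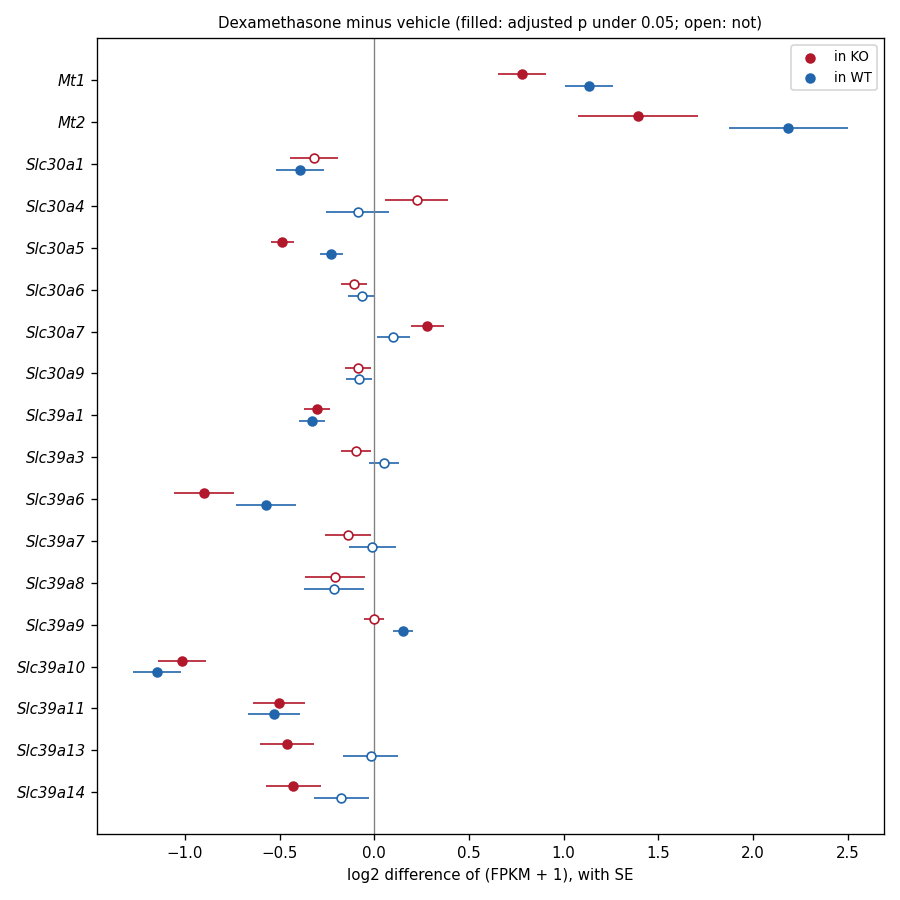
Log2 difference of FPKM + 1 (dexamethasone minus vehicle) with its SE for the 18 metallothionein, SLC30 and SLC39 genes that passed the filter on low values, FOXO3-/- above wildtype for each gene; filled points have an adjusted p under 0.05. Mt1 and Mt2 lie furthest to the right, and Slc39a10 lies furthest to the left in both genotypes.

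Among 4 other genes reported as MTF1 targets, dexamethasone raised 1 in FOXO3-/- cells and 2 in wildtype cells and lowered 0, where 15.0% and 11.9% of all tested genes were called higher. Between genotypes 1 was lower in FOXO3-/- cells in vehicle (1.30% of all tested genes were) and 3 were lower under dexamethasone (12.4% were). Gclc, the catalytic subunit of the enzyme that starts glutathione synthesis, averaged 9.39 ± 0.405 FPKM in KO dex and 10.9 ± 1.84 FPKM in KO vehicle (log2 difference -0.18, adjusted p = 0.255). It averaged 17.7 ± 1.83 FPKM in WT dex and 11.8 ± 1.96 FPKM in WT vehicle (log2 difference 0.55; limma, adjusted p = 0.0028). Under dexamethasone it was lower in FOXO3-/- than in wildtype cells, by a log2 difference of -0.84 (limma, adjusted p = 0.000368), and by -1.08 with the stromal score as a covariate (adjusted p = 5.19e-05). Slc40a1, the gene of the iron exporter ferroportin, rose with dexamethasone by 1.44 in FOXO3-/- cells (limma, adjusted p = 5.13e-05) and by 0.74 in wildtype cells (limma, adjusted p = 0.0105). The wildtype call was lost without the 3 libraries apart in Col1a1 (adjusted p = 0.0605) and in the libraries under 50 FPKM of Col1a1 (adjusted p = 0.115). Slc40a1 was lower in FOXO3-/- cells with either treatment, by -1.91 in vehicle (limma, adjusted p = 4.69e-05) and by -1.21 under dexamethasone (limma, adjusted p = 0.001). Under dexamethasone it averaged 21.9 ± 6.39 FPKM in KO dex and 51.1 ± 8.86 FPKM in WT dex. Both calls between genotypes, and the wildtype call of Gclc, were lost only in the libraries under 50 FPKM of Col1a1, with 1 wildtype library per treatment. Selenow, a small selenoprotein gene, was at 23.2 ± 2.32 FPKM in KO dex and 41.7 ± 12.2 FPKM in WT dex, a log2 difference of -0.78 (limma, adjusted p = 0.0368) that was -0.18 with the stromal covariate (adjusted p = 0.658) and passed in 17 of 27 alternatives.

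Copper handling was examined because metallothioneins bind copper too. Of 7 copper genes tested, 3 rose and 1 fell with dexamethasone in FOXO3-/- cells, and 2 rose and 1 fell in wildtype cells. Of all tested genes 15.0% were called higher and 24.1% lower in FOXO3-/- cells, and 11.9% and 18.2% in wildtype cells. Slc31a1, the gene of the plasma membrane copper importer CTR1, averaged 78.6 ± 8.55 FPKM in KO dex and 31.8 ± 3.50 FPKM in KO vehicle, a log2 difference of 1.28 (limma, adjusted p = 3.65e-06). It averaged 43.7 ± 8.40 FPKM in WT dex and 23.4 ± 3.29 FPKM in WT vehicle, a log2 difference of 0.86 (limma, adjusted p = 0.000193). Under dexamethasone Slc31a1 was higher in FOXO3-/- than in wildtype cells, by 0.84 (limma, adjusted p = 0.000706), and by 0.55 with the stromal score as a covariate (adjusted p = 0.00768). This call was lost only in the libraries under 50 FPKM of Col1a1, with 1 wildtype library per treatment. Atox1, the chaperone that hands copper to the ATPases of the secretory pathway, fell in both genotypes, with log2 differences of -0.74 in FOXO3-/- cells (limma, adjusted p = 3.86e-05) and -0.69 in wildtype cells (limma, adjusted p = 0.00011). The wildtype call of Atox1 was lost only in those same libraries under 50 FPKM of Col1a1. The other genes that rose were Sod1, the copper and zinc superoxide dismutase, by 0.23 in each genotype (limma, adjusted p = 0.0302 in FOXO3-/- and 0.0427 in wildtype cells; passed in 20 and 11 of 27 alternatives), and Cox17, a mitochondrial copper chaperone, by 0.33 in FOXO3-/- cells (limma, adjusted p = 0.0193; passed in 23 of 27 alternatives). Of the pair that sequesters zinc outside cells, S100a8 passed no test, averaging at most 2.13 FPKM in any group, and S100a9 did not pass the filter on low values.

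Patterns over the 16 libraries were also compared with those of 10601 other named genes, by the root mean square difference of centred log2(FPKM + 1) values. The nearest to Mt1 was Smurf2, a ubiquitin ligase gene, at 0.131, where the values of Mt1 had a root mean square of 0.527 about their own mean. The nearest to Mt2 was Gfra4 at 0.446, against 1.03 for Mt2 itself, and the next was Slc10a6 at 0.453. For Slc30a5 the nearest was Ncbp2 at 0.0651, for Slc39a1 Timm50 at 0.0544, for Slc30a1 Cmas at 0.0914, and for Slc39a14 Rpl12 at 0.0897. For Mtf1 it was Arl6ip4 at 0.0459, close to the 0.0695 of Mtf1 itself, since that gene hardly varied. These are descriptions over libraries that share treatment and stromal content.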

How the data were processed

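For each library the authors deposited FPKM for 54532 Ensembl identifiers. Per the submitters' processing notes, the builds were GRCm38 and mm10 and the tools included DESeq2, HTSeq 0.6.1, TopHat2 2.0.12 and Bowtie2 2.2.3. Their roles, the annotation version and the strand setting are not stated there. RNA was extracted with TRIzol, per the labels' protocols. Symbols and positions came from GENCODE M21, which held 54495 identifiers.

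FPKM are not counts, so log2(FPKM + 1) was modelled in R 4.3.3 by limma 3.58.1 (4 group means, intensity trend, moderated variance, two-sided) on the 11654 genes that reached 1 FPKM in 4 or more libraries. P-values were adjusted by Benjamini-Hochberg over these genes within each of 5 comparisons. Reads were recovered from FPKM and exon length, and 96.3% to 96.7% of positive values per library were whole within 0.05 reads. They served voom, and every pair of libraries of the same group differed beyond sampling noise (chi-square per gene 3.20 or more). Depth limits the precision of low genes such as Mt2. The steps were tested on simulated data. Genes named beyond the 7 were, per comparison over the lists together, up to 6 called members with the smallest adjusted p, zinc family genes averaging 20 FPKM or more, control genes, and for each gene up to 3 with the closest pattern. Slc30a6, Slc30a7, Slc39a6, Slc39a11, Slc39a13, Mt3, Mt4, Sod1, Cox17, S100a8 and S100a9 fall outside this and were named after their values were seen. The members and lists were chosen with earlier results of these data known. Alternatives changed pseudocount, filter, scaling, weights, groups in the fit, replicate block, stromal covariate and libraries. The set of 9 libraries under 50 FPKM of Col1a1 was chosen after seeing the data, and its lone wildtype library per treatment is assumed to vary like the other groups. Tables and plots were made in Python 3.11.15 with matplotlib 3.10.9, scipy 1.17.1, pandas 2.3.3 and numpy 2.4.6.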

Additional observations from a re-analysis of the deposited data

Results flagged for a closer look

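In each of the 28 sets of 4 libraries (7 genes in 4 groups), the library farthest from the others was screened by Dixon's ratio of its gap to the group's range, and set against the ratio's 95% critical value. The screen picked out 4 sets, and chance picks about 1 in 20. In Slc30a1 it was WT dex replicate 4, at 14.9 FPKM where the others were 10.6 to 11.1 FPKM, with a ratio of 0.877. In Slc39a14 the same library was the lowest, at 1.73 FPKM where the others were 3.26 to 3.49 FPKM, with a ratio of 0.869. KO vehicle replicate 4 was the lowest in Slc30a5, at 12.1 FPKM where the others were 13.8 to 14.1 FPKM, with a ratio of 0.842. It was the highest in Slc39a14, at 3.57 FPKM where the others were 3.20 to 3.25 FPKM, with a ratio of 0.870. Both libraries also stood apart in Col1a1, at 19.1 FPKM in WT dex replicate 4 and 95.8 FPKM in KO vehicle replicate 4, and the part of this in the values was not tested.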

How the results depend on the processing

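Of 938 values of the 7 genes under an alternative, 830 kept direction and side of the threshold, 35 lost a call, 19 gained one, 53 changed sign with no call on either side and 1 changed sign with a call, Mtf1 with dexamethasone in FOXO3-/- cells on recovered reads (0.16). The cause of these changes was not tested. The median of all genes shifted by 0.174 on recovered reads in that comparison.

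In wildtype cells with dexamethasone, 5 of the 7 genes were called, against 3 with only the compared groups and 3 in libraries under 50 FPKM of Col1a1, where 2155 of all genes (3508 otherwise) and 5 of the family of 18 (9 otherwise) passed. For FOXO3-/- against wildtype in vehicle, 1 of the 7, 545 of all genes and 2 of the family passed. Library weights gave 2, 4840 and 8, only the compared groups 0, 244 and 0, leaving out the 3 libraries apart 3958 of all genes and 7 of the family, and the libraries under 50 FPKM of Col1a1 0, 60 and 0. The family count was 1 with no filter, median-ratio scaling, quantile normalization, the stromal covariate or voom. Leaving out 1 library gave 278 to 1623 genes and 1 to 5 of the family.

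Under dexamethasone the same counts were 1, 3114 and 1. Library weights gave 3, 6388 and 10, leaving out the 3 libraries 4, 5158 and 10, the stromal covariate 0, 969 and 0, and the libraries under 50 FPKM of Col1a1 0, 390 and 0. No filter gave 0 of the 7 and 2 of the family, voom 0 of the 7, and median-ratio scaling, quantile normalization or only the compared groups 2 of the family. Leaving out 1 library gave 0 to 3 of the 7, 1517 to 4070 genes and 0 to 5 of the family. For the interaction the counts were 0, 15 and 0. They were 1, 1391 and 3 with library weights, 1, 725 and 3 without the 3 libraries, 120 of all genes with the covariate, 6 with no filter or voom, 1 in the libraries under 50 FPKM of Col1a1, and 2 to 330 (0 to 1 of the family) with 1 library left out.

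With the replicate number as a block, Mt1 between genotypes under dexamethasone (adjusted p = 0.0528), Slc39a14 in FOXO3-/- cells (0.0519) and Slc30a1 in wildtype cells (0.0589) lost their calls. The block left 1 of the family in vehicle, 0 of the 7 and 0 of the family under dexamethasone, and 1 interaction gene. Deviations from the group means correlated at -0.763 to 0.732 between same-numbered libraries. Signs were mixed within each genotype and the labels state no pairing, so these values cannot decide whether the numbers pair libraries. Mt2 at 11 reads sets the limit of depth.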
